A study of Mus musculus with 35 samples.

Results

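The vesicular glutamate transporters are encoded by 3 mouse genes, Slc17a6 (VGLUT2), Slc17a7 (VGLUT1) and Slc17a8 (VGLUT3), and they were chosen by name and matched by symbol to 3 of the 52636 gene identifiers in the count files. The libraries came from 19 female mice of either the inbred strain C57BL/6J or the hybrid strain B6D2F1N, kept in standard or in enriched housing, where the enriched mice could enter a playground for 1 h per day from postnatal day 77. All mice of all groups had been trained on a touchscreen from postnatal day 70 and had completed a cognitive judgment bias test before they were killed, and all were on restricted food, so every group shares that history. Tissue was laser-captured from frozen sections, aiming at the basolateral amygdala, in an anterior and a posterior portion, and polyadenylated RNA was sequenced as single reads of 72 bases. Altogether 35 libraries were used here, 16 anterior and 19 posterior, and 16 mice contributed both portions.

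In the anterior portion there were 4 C57BL/6J standard, 2 C57BL/6J enriched, 5 B6D2F1N standard and 5 B6D2F1N enriched libraries. The posterior portion held 4, 4, 5 and 6 libraries of the same groups. Counts assigned to genes ranged from 16938534 to 27352623 per library. The mice are numbered within strain and housing. Levels are given as CPM, the counts of a gene scaled to a common library size, after TMM normalization over the 35 libraries, and a gene was called higher or lower at an adjusted p of at most 0.05.

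The captured tissue held several cell types. Excitatory neuron and basolateral amygdala markers were detected in both portions. Markers of hypothalamic and medial amygdala neurons, of serotonergic neurons and of cholinergic neurons were low, with summed levels of at most 27.5, 2.79 and 12.9 CPM in any library. The first of these lists had a median sum of 0.0956 CPM in anterior and 3.69 CPM in posterior libraries. The posterior libraries also held choroid plexus RNA, which is described with the portion results. One B6D2F1N standard mouse, mouse 1, had 0 counts of the X-inactivation transcript Xist in both portions, whereas every other library had at least 54.4 CPM. Counts of Uty, Kdm5d, Eif2s3y and Ddx3y, which are Y-linked, summed to 0 in all libraries, that mouse included. The B6D2F1N portion differences of Slc17a6, Slc17a7 and their ratio are given with and without it below. So are the strain differences of Slc17a6 and Slc17a7 in standard mice. The other results that use this mouse are given with it, apart from ranges over mice left out in turn. The published methods list the bregma ranges of the portions in the reverse of the usual anatomical order, and whether the labels use that order or the usual one was not tested. With the names swapped, every portion difference below would have the opposite sign.

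Vesicular glutamate transporters sit in the membrane of synaptic vesicles and load them with glutamate, driven by the proton gradient that the vacuolar proton pump builds. In the forebrain, Slc17a7 is the transporter typical of cortical, hippocampal and basolateral amygdala projection neurons, whereas Slc17a6 is typical of thalamic, hypothalamic and other subcortical glutamatergic neurons, including thalamic neurons whose axons end in the amygdala. Slc17a8 is found in sparse populations that often release a second transmitter, such as cholecystokinin basket cells, serotonergic neurons and cholinergic interneurons.

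Slc17a6 (ENSMUSG00000030500) lies on the plus strand at chr7:51622006-51671119 of GRCm38 and Slc17a7 (ENSMUSG00000070570) on the plus strand of the same chromosome at chr7:45163949-45176142. Slc17a8 (ENSMUSG00000019935) lies on the minus strand at chr10:89574020-89621253. The merged exons of GENCODE M21 cover 5399, 5392 and 4720 bases. Each gene has 12 coding exons in its longest protein-coding transcript, with a coding length of 1746 bases in Slc17a6, 1680 bases in Slc17a7 and 1803 bases in Slc17a8. Coding exons 3 to 6 and 8 to 11 are of the same length in all 3 genes. Over the whole coding sequence, 71.9% of aligned bases were the same in Slc17a6 and Slc17a7, 71.1% in Slc17a6 and Slc17a8, and 70.0% in Slc17a7 and Slc17a8.

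Because the genes are related, the stretch in which they are most alike over the length of a read is shown first. Among the 363 windows of 72 bases inside coding exons of equal length, the bases shared by all 3 genes ranged from 36 to 55, with a median of 50. The window with 55 shared bases lies in coding exon 11, at chr7:51667956-51668027 in Slc17a6, chr7:45173412-45173483 in Slc17a7 and chr10:89577907-89577978 in Slc17a8, each on the strand of its gene. Capitals mark the positions at which the 3 genes are not all the same.
Slc17a6: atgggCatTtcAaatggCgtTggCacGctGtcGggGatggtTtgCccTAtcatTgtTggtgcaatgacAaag
Slc17a7: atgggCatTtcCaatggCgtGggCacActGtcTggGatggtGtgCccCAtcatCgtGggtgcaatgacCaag
Slc17a8: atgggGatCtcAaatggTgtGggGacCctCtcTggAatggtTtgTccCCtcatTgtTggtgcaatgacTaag

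Even here Slc17a6 differed from Slc17a7 at 9 of 72 bases and from Slc17a8 at 13. The window with 36 shared bases, in coding exon 9, is shown for contrast. It lies at chr7:51666069-51666140, chr7:45172100-45172171 and chr10:89589515-89589586.
Slc17a6: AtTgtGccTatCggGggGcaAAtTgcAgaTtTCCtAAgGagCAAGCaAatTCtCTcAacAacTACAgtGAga
Slc17a7: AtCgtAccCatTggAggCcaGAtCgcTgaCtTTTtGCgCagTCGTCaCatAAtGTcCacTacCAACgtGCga
Slc17a8: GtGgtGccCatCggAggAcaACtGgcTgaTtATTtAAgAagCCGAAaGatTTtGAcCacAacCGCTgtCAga

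Of the 5527 different stretches of 72 bases in the annotated Slc17a6 transcripts and the 5810 in those of Slc17a7, 0 matched a transcript of another gene with up to 2 differences on either strand. In Slc17a8, 78 of 4649 stretches (1.68%) matched other genes and 0 matched the other two transporters. Gm45072 overlaps Slc17a6 and Mir7055 overlaps Slc17a7, both on the same strand.

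The first comparison asked how the transporters differ between the portions of the amygdala. Compared with the anterior portion of the same mice, the posterior portion had more Slc17a6 and less Slc17a7 in both strains, so that 2 of the 3 genes passed the test in each. Over all genes tested, 3.64% passed in C57BL/6J and 4% in B6D2F1N. In the anterior portion Slc17a6 was at 43.0, 84.3, 57.1 and 34.6 CPM in C57BL/6J standard mice 1 to 4, and at 191 and 88.9 CPM in C57BL/6J enriched mice 1 and 3. In the posterior portion it was at 187, 282, 238 and 442 CPM in the standard mice and at 184, 98.4, 84.8 and 188 CPM in enriched mice 1 to 4. All 4 standard mice thus had a higher level in the posterior portion and their portions did not overlap, as for 9.42% of all genes tested in these 8 libraries, while the levels of the enriched mice lay in a similar range in both portions.

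Over the 6 C57BL/6J mice with both portions, the mean level of Slc17a6 was 83.1 ± 57 CPM (SD, n = 6) in anterior and 236 ± 121 CPM (SD, n = 6) in posterior libraries. The edgeR quasi-likelihood test with mouse as a block gave a log2 difference, posterior minus anterior, of 1.58 (SE 0.37, adjusted p = 0.0198), and 4 of 6 mice had the higher level in the posterior portion. This call was close to the threshold. It was lost when any one of standard mice 1, 2, 3 and 4 was left out (log2 difference 1.46, 1.54, 1.47 and 1.17, edgeR adjusted p = 0.0818, 0.0682, 0.0659 and 0.0720), with DESeq2 (1.59, adjusted p = 0.0688) and with a stricter filter on low counts (1.59, edgeR adjusted p = 0.0658).

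B6D2F1N showed the same direction with a smaller spread. Slc17a6 was at 72.2, 58.4, 71.6, 85.5 and 53.3 CPM in the anterior portion of standard mice 1 to 5, and at 56.5, 213, 83.2, 76.0 and 43.6 CPM in that of enriched mice 1, 2, 3, 4 and 6. The posterior levels were 342, 256, 200, 69.5 and 103 CPM in the standard mice, and those of the 6 enriched mice ranged from 168 to 289 CPM with a median of 225 CPM. Enriched mouse 2 was the only anterior library above 100 CPM in this strain and standard mouse 4 the only posterior one below it, so the portions overlapped. The mean rose from 81.3 ± 48.2 to 206 ± 81.4 CPM (SD, n = 10 each), with a log2 difference of 1.38 (SE 0.25, edgeR adjusted p = 0.00265), and 9 of 10 mice were higher in the posterior portion. Without standard mouse 1, which lacked Xist, the difference was 1.29 (edgeR adjusted p = 0.00887).

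**Figure D1:**
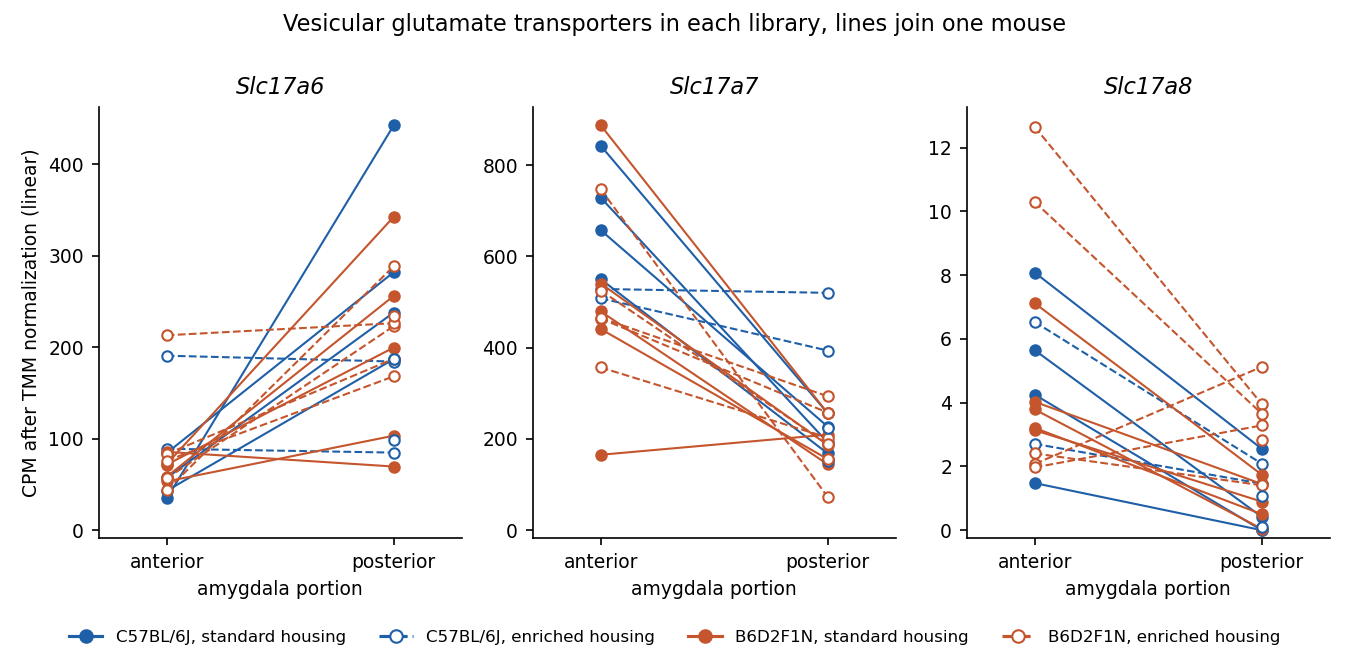
Levels of the 3 transporters (CPM on a linear axis, a panel per gene) in the anterior and posterior portion, with a line for each mouse that has both and colours and symbols for strain and housing. Slc17a6 was higher in the posterior portion in 13 of 16 mice and Slc17a7 lower in 15 of 16. The lines of the C57BL/6J enriched mice are nearly flat for Slc17a6. For Slc17a7 they run from 529 to 520 CPM in mouse 1 and from 508 to 394 CPM in mouse 3.

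Slc17a7, the transporter of cortical-type projection neurons, went the other way. In C57BL/6J its anterior level was 729, 843, 550 and 658 CPM in standard mice 1 to 4 and 529 and 508 CPM in enriched mice 1 and 3. Posterior levels were 192, 256, 168 and 227 CPM in the standard mice and 520, 224, 394 and 151 CPM in enriched mice 1 to 4. All 6 mice had the lower level in the posterior portion, by a factor of 0.264 to 0.345 of the anterior level in the standard mice and of 0.984 and 0.775 in enriched mice 1 and 3. The mean was 636 ± 132 CPM in anterior and 293 ± 137 CPM in posterior libraries (SD, n = 6 each), and the level fell by 1.22 on the log2 scale (SE 0.23, edgeR adjusted p = 0.00352). The call held when each mouse was left out in turn.

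In B6D2F1N, anterior Slc17a7 was at 888, 541, 165, 480 and 441 CPM in standard mice 1 to 5 and at 357, 464, 525, 747 and 465 CPM in enriched mice 1, 2, 3, 4 and 6. The posterior levels were 256, 187, 209, 144 and 156 CPM in the standard mice, and in the 6 enriched mice they ranged from 72.9 to 293 CPM with a median of 196 CPM. Only standard mouse 3, whose anterior library had the lowest Slc17a7 level of that portion, was not lower in the posterior portion. Slc17a7 fell by 1.32 on the log2 scale (SE 0.24, edgeR adjusted p = 0.00334), from 507 ± 198 to 197 ± 63.9 CPM (SD, n = 10 each), in 9 of 10 mice. Without standard mouse 1 it fell by 1.26 (edgeR adjusted p = 0.0117). In bulk tissue, fewer cells of a type and less RNA per cell cannot be told apart.

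Slc17a8 was rare. Its anterior levels ranged from 1.48 to 12.6 CPM with a median of 3.91 CPM, and the posterior ones from 0 to 5.12 CPM with a median of 1.45 CPM. In C57BL/6J the anterior levels were 1.48, 8.08, 4.25 and 5.65 CPM in standard mice 1 to 4 and 6.53 and 2.71 CPM in enriched mice 1 and 3, against posterior levels of 0, 2.55, 0 and 0.418 CPM in the standard mice and 2.09 and 1.46 CPM in those enriched mice. All 6 mice had less Slc17a8 in the posterior portion. A count of 0, as in standard mice 1 and 3, allows a level of up to 0.124 and 0.117 CPM (3 counts, counting error only).

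The log2 difference of Slc17a8 was -3.06 in C57BL/6J (SE 0.88, edgeR adjusted p = 0.0634) and did not pass the threshold. It passed with DESeq2 (-3.18, adjusted p = 0.00526), with no minimum count (-3.06, edgeR adjusted p = 0.00352) and without enriched mouse 3 (-3.57, edgeR adjusted p = 0.0254). In B6D2F1N the difference was -1.46 (SE 0.57, edgeR adjusted p = 0.192), with lower posterior levels in 8 of 10 mice. There, anterior levels ran from 1.97 to 12.6 CPM with a median of 3.50 CPM, and posterior levels in the 10 mice with both portions from 0.0439 to 5.12 CPM with a median of 1.60 CPM. The 5 standard mice all had the lower level in the posterior portion, whereas enriched mice 1 and 3 had the higher level there.

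The ratio of Slc17a6 to Slc17a7 counts within a library does not depend on the depth of the library. In the anterior portion the ratio was 0.0590, 0.10, 0.104 and 0.0526 in C57BL/6J standard mice 1 to 4 and 0.361 and 0.175 in enriched mice 1 and 3. In the posterior portion it was 0.973, 1.10, 1.42 and 1.95 in the standard mice and 0.354, 0.439, 0.215 and 1.24 in enriched mice 1 to 4. In the 4 standard mice the posterior ratio was 11.0-fold to 37.0-fold the anterior one. In the 2 enriched mice with both portions it was 0.982-fold and 1.23-fold.

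In B6D2F1N the anterior ratio was 0.0814, 0.108, 0.433, 0.178 and 0.121 in standard mice 1 to 5 and 0.158, 0.459, 0.158, 0.102 and 0.0936 in enriched mice 1, 2, 3, 4 and 6. Posterior ratios were 1.34, 1.37, 0.953, 0.482 and 0.663 in the standard mice and between 0.878 and 2.31 with a median of 1.05 in the 6 enriched mice. Every posterior ratio of this strain lay above every anterior one. The mean log2 ratio, with 0.5 added to each count, differed by 2.70 ± 1.23 between the portions (SD of the paired differences, n = 10), or 6.50-fold, and was higher in the posterior portion in 10 of 10 mice (two-sided exact permutation test by sign flips, p = 0.00195, the smallest that 10 mice allow, and 0.0195 after Benjamini-Hochberg adjustment over 10 ratio tests). Without standard mouse 1 the mean difference was 2.55 (exact permutation test, adjusted p = 0.0391). In C57BL/6J the mean difference was 2.79 ± 2.14 (SD, n = 6), or 6.93-fold, in 5 of 6 mice, and the exact permutation test gave p = 0.0625 (adjusted 0.159), where 6 mice allow no value below 0.0313.

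**Figure D2:**
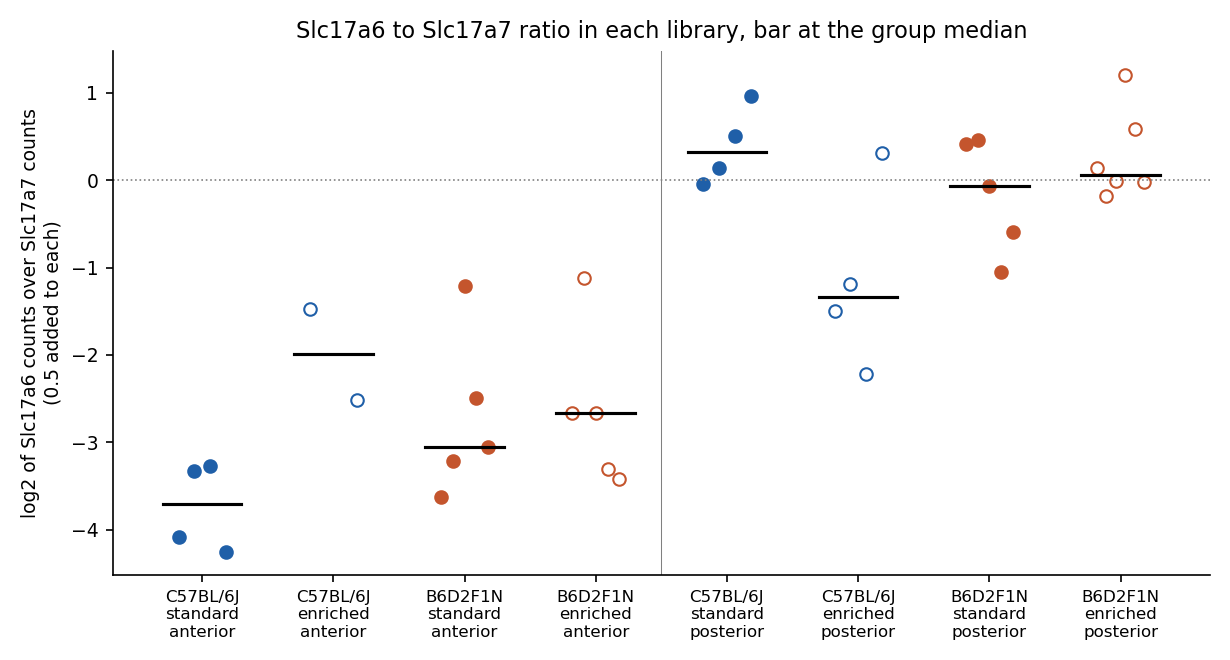
The log2 ratio of Slc17a6 to Slc17a7 counts (vertical axis, 0.5 added to each count) in every library of the 8 groups, with a bar at the group median and a dotted line at equal counts. All anterior libraries lie below the dotted line and 9 of 19 posterior libraries lie above it, and the C57BL/6J enriched mice have the highest anterior median (-1.99) and the lowest posterior median (-1.34).

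Levels of different genes can be compared only per length, here as CPM per kb of merged exon. In the anterior portion the median was 97.7 CPM per kb for Slc17a7, 13.3 for Slc17a6 and 0.828 for Slc17a8, and Slc17a7 was above Slc17a6 in all 16 libraries. In the posterior portion the medians of Slc17a7 and Slc17a6 were 37.6 and 37.0 CPM per kb, and that of Slc17a8 was 0.307. Slc17a6 was above Slc17a7 in 9 of 19 posterior libraries on this scale, and in 5 of 19 when the length of the longest transcript was used. Of the summed level of the 3 transporters, Slc17a6 made up 4.95% to 30.8% in the anterior and 17.6% to 68.5% in the posterior portion.

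The summed level itself was lower in the posterior portion in 13 of 16 mice, with a median log2 difference of -0.55, for which no test was run. As reference levels per kb, the vesicular GABA transporter Slc32a1 had a median of 6.05 in the anterior and 6.96 in the posterior portion, and Camk2a, a kinase of excitatory neurons, 319 and 238. The GABA-synthesizing enzymes Gad1 and Gad2 had medians of 33.6 and 16.7 in the anterior and of 30.7 and 16.5 CPM per kb in the posterior portion. None of these 4 genes passed the test between the portions in either strain.

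**Figure D3:**
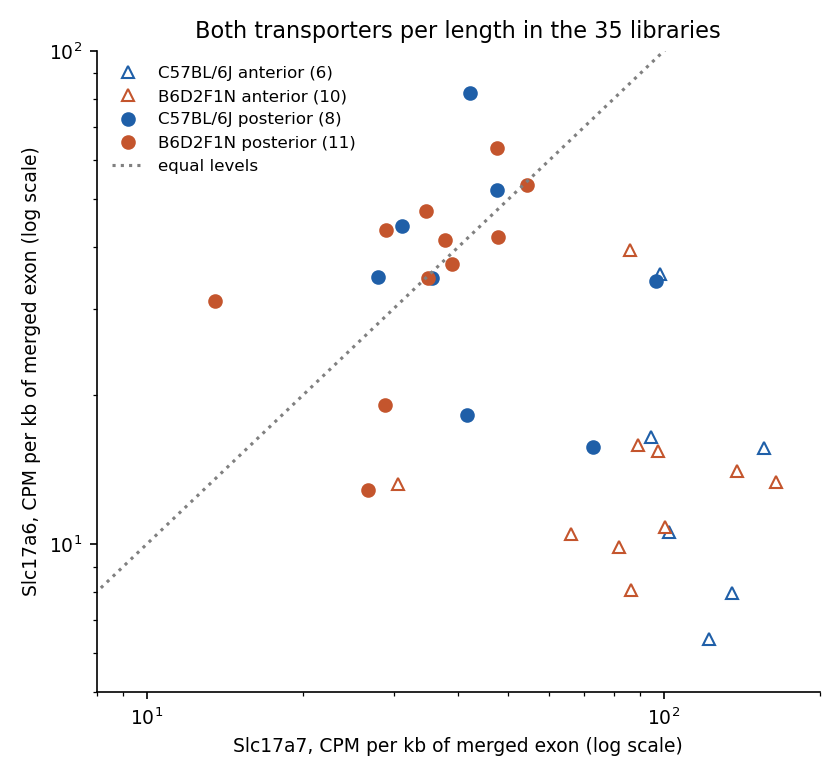
Slc17a6 against Slc17a7 (CPM per kb of merged exon, both axes logarithmic) in the 35 libraries, with open triangles for anterior and filled circles for posterior libraries and a dotted line at equal levels. The anterior libraries lie to the right of the line, around a median of 97.7 for Slc17a7, and most posterior libraries lie close to the line.

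Other cell types and regions moved with the portion as well. The counts for these lists stand beside 3.64% of all genes passing in C57BL/6J and 4% in B6D2F1N. Of the 4 choroid plexus markers, 3 were higher in the posterior portion in C57BL/6J and 4 in B6D2F1N, among them the thyroxine carrier Ttr (log2 difference 6.45 and 7.48, edgeR adjusted p = 1.38e-05 and 3.32e-05), the folate receptor Folr1 (5.99 and 6.16) and Kl (3.68 and 3.52), and their summed level ranged from 3.61 to 922 CPM in anterior and from 115 to 14098 CPM in posterior libraries. The choroid plexus regulator Otx2 was at 0 in 12 of 16 anterior and in 0 of 19 posterior libraries. Of the 4 ependymal cell markers, 2 and 3 were higher (Tmem212, log2 difference 7.40 and 6.62, and Ccdc153, 4.27 and 6.22), with sums of 0.548 to 26.9 and 7.53 to 162 CPM. Among meningeal fibroblast markers 1 of 4, the proteoglycan Dcn, was higher (5.80 and 2.97), and the sums ran from 17.2 to 66.1 and from 15.2 to 1745 CPM.

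Among markers of the neurons in which the transporters are typically found, 1 of 5 thalamic neuron markers was higher in the posterior portion in C57BL/6J and 2 of 5 in B6D2F1N, with the calcium-binding protein Calb2 among them in both (log2 difference 2.00 and 1.71, edgeR adjusted p = 0.00190 and 0.0365). In C57BL/6J 3 of these 5 markers had a difference above 0 and 2 below 0 (lowest -2.61, median 0.10). In B6D2F1N all 5 were above 0 (median 1.43). Their summed level ranged from 61.5 to 372 CPM in anterior and from 75.3 to 537 CPM in posterior libraries, and Gbx2 was at 0 in 11 of 16 and in 11 of 19. Of 8 forebrain excitatory neuron markers, 2 were lower in C57BL/6J (the transcription factors Tbr1, -2.25, and Neurod6, -2.31), while in B6D2F1N 3 were lower (Tbr1, -2.38, and Neurod6, -1.70, among them) and 1 was higher. Their sums were 1515 to 4125 and 894 to 5020 CPM. Of 6 basolateral amygdala markers 2 and 1 were lower, with the Wnt modulator Rspo2 lower in both strains (-2.59 and -3.63, edgeR adjusted p = 1.11e-06 and 0.000839), and the sums were 859 to 2297 and 725 to 1480 CPM. This list was split, with 3 of the 6 above 0 and 3 below 0 in each strain and medians of -0.05 and -0.17.

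Markers of cholecystokinin basket cells, in which Slc17a8 is typically found, included 2 of 4 lower genes in C57BL/6J and 3 of 4 in B6D2F1N, with the cannabinoid receptor Cnr1 (-0.90 and -1.26) and the peptide Vip (-0.96 and -0.87) lower in both and 1 gene higher in C57BL/6J. Among the markers with low sums, 1 of 7 tested hypothalamic and medial amygdala neuron markers was higher in the posterior portion in B6D2F1N. There, 6 of the 7 had a difference above 0, with a median of 2.18, while in C57BL/6J 0 of 5 passed and the median was -3.26. At such low levels the size of these differences is imprecise. In C57BL/6J the median sum of the list was 1.42 CPM in standard anterior and 1.74 CPM in standard posterior libraries. In the enriched ones it was 7.13 and 7.22 CPM. The transmitter enzyme Chat, 1 of 3 cholinergic neuron markers, was lower in C57BL/6J (-7.02, edgeR adjusted p = 0.0394), and all 3 had differences below 0 in both strains. With Chat at 0 in 5 anterior and 14 posterior libraries of both strains together, the size of its difference is imprecise. The summed levels ranged from 0 to 14.3 CPM (anterior) and 0 to 27.5 CPM (posterior) for the first list and from 0 to 12.9 CPM and 0 to 6.67 CPM for the second. Neither of the 2 tested serotonergic neuron markers passed in either strain. Chat is named after its values were seen. Of the 5 astrocyte markers, 2 and 1 were higher, with Gfap in both (1.38 and 1.93). No inhibitory neuron, oligodendrocyte, microglia or endothelial cell marker passed between the portions in either strain. The part of these cell types in the differences of the transporters was not tested.

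Single libraries show how these values lie side by side. The anterior library of B6D2F1N standard mouse 3, with the lowest anterior Slc17a7 level, had Rspo2 at 33.5 CPM and Calb2 at 121 CPM. The other anterior libraries had Rspo2 at 119 CPM or more and Calb2 at 54.3 CPM or less, except for B6D2F1N enriched mouse 1 (Rspo2 33.1 CPM) and C57BL/6J enriched mouse 1 (Calb2 138 CPM). Rspo2 and Calb2 are single genes of their lists. In the library of standard mouse 3 the inhibitory neuron markers summed to 839 CPM, the highest of all libraries. Its basolateral amygdala markers summed to 859 CPM, the lowest anterior sum, and its thalamic neuron markers to 180 CPM, within an anterior range of 61.5 to 372 CPM. The part of these cell types in its transporter levels was not tested. The posterior library with the lowest Slc17a6 level, of B6D2F1N standard mouse 4, had Rspo2 at 0.0427 CPM, Calb2 at 12.7 CPM and Ttr at 4413 CPM. The posterior library with the highest Slc17a6 level, of C57BL/6J standard mouse 4, had Ttr at 196 CPM, and that with the highest Ttr level, 13689 CPM in B6D2F1N enriched mouse 3, had Slc17a6 at 187 CPM.

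Whether the portion difference depends on strain or housing was tested in 1 fit over the 16 mice with both portions. The fit had no term for strain and housing in combination. Its housing term therefore covers both strains together and does not test a housing pattern found in only 1 strain. Of 29437 genes tested, 0% passed for strain and 0% for housing in edgeR (819 and 888 genes had an unadjusted p under 0.05, and DESeq2 called 0 and 1), and the transporters had an adjusted p of 1 in both. For strain, the difference between the log2 portion differences, B6D2F1N minus C57BL/6J, was -0.05 for Slc17a6 (95% interval -0.94 to 0.84), -0.19 for Slc17a7 (-0.91 to 0.53) and 1.40 for Slc17a8 (-0.53 to 3.32). For housing, enriched minus standard, it was -0.81 (-1.68 to 0.07), 0.48 (-0.23 to 1.19) and 2.47 (0.65 to 4.30). The interval of Slc17a8 for housing lay above 0, but the gene did not pass the adjustment over all genes.

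The C57BL/6J mice were then looked at by housing, a split chosen after seeing the data. In the 4 standard mice alone, in which 3.72% of all genes passed, Slc17a6 was higher by 2.41 (SE 0.27, edgeR adjusted p = 0.000125), Slc17a7 fell by 1.69 (SE 0.15, edgeR adjusted p = 2.15e-05) and Slc17a8 fell by 4.33 on the log2 scale (SE 1.13, edgeR adjusted p = 0.0463). In the 2 enriched mice with both portions, in which 1.22% of all genes passed, the log2 differences were -0.06, -0.20 and -1.27, and none passed (edgeR adjusted p = 1, 1 and 0.940). Permuting the housing labels over the log2 differences of the 6 mice (0.1 CPM added to each level) gave an exact p of 0.0667 for Slc17a6, for Slc17a7 and for the ratio, which is the smallest that 4 against 2 mice allow (0.133 after adjustment over 8 such tests). Other markers did not all follow the portion labels in these enriched mice. Rspo2 was at 119 CPM in both anterior libraries and at 26.8 and 32.1 CPM in the posterior libraries of mice 1 and 3, and Dcn was at 17.2 and 39.4 against 1382 and 794 CPM. In mouse 1, however, Calb2 was at 138 CPM in the anterior library against 81.8 CPM in the posterior one, the summed thalamic neuron markers at 372 and 158 CPM, the forebrain excitatory neuron markers at 1808 and 5020 CPM and the basolateral amygdala markers at 1459 and 1418 CPM. In mouse 3 these were 29.5 and 191, 93.4 and 323, 4125 and 2021, and 1572 and 1050 CPM. Their part in the values of the transporters was not tested.

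In B6D2F1N the same split gave log2 differences of 1.35 (5 standard mice, in which 0.781% of all genes passed, edgeR adjusted p = 0.0853) and 1.43 (5 enriched mice, in which 2.06% passed, edgeR adjusted p = 0.0204) for Slc17a6, and of -1.25 (adjusted p = 0.0710) and -1.38 (adjusted p = 0.0392) for Slc17a7. For Slc17a8 they were -2.51 and -0.40, and the exact permutation test of the housing labels over the 10 mice gave p = 0.0317 (0.133 adjusted).

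**Figure D4:**
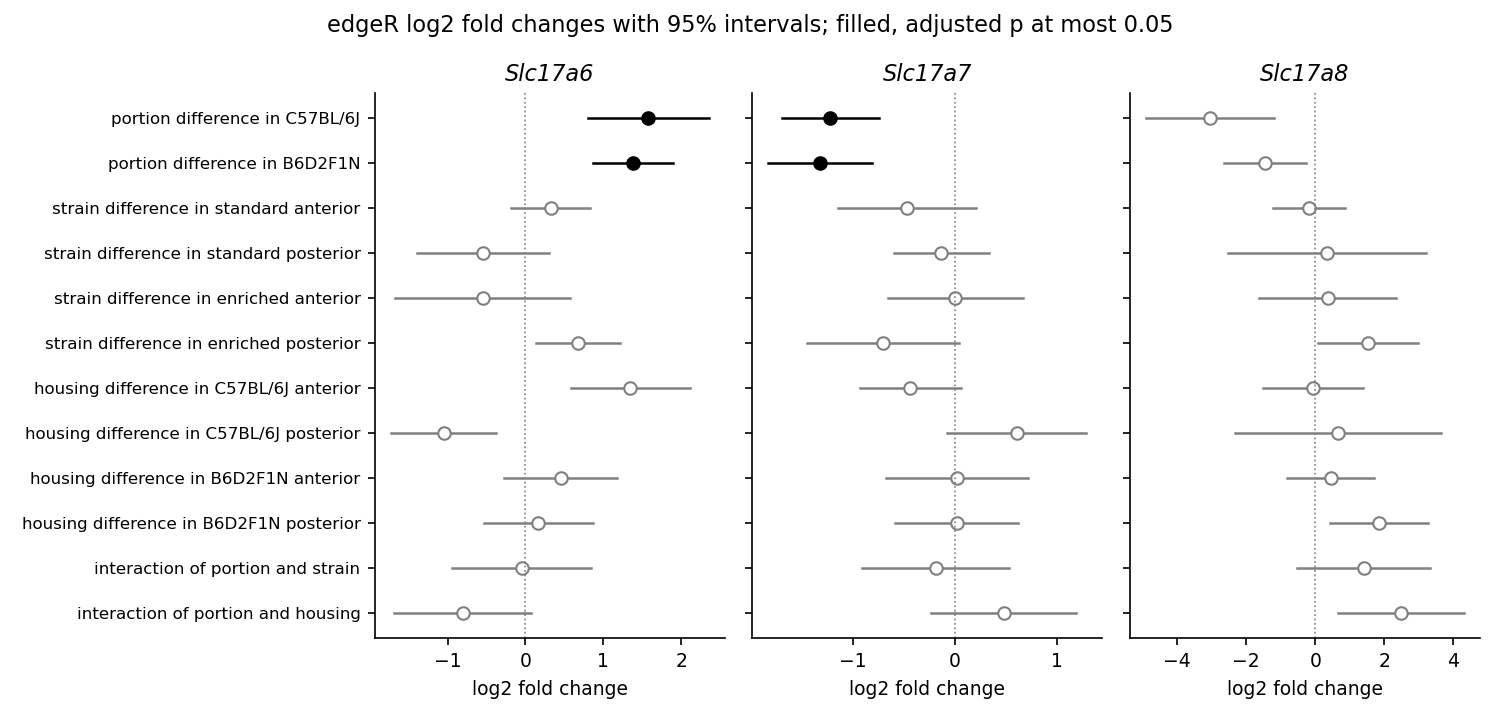
Log2 differences of the 3 transporters in the 12 comparisons (edgeR, horizontal lines for 95% intervals, filled points for an adjusted p of at most 0.05), as posterior minus anterior, B6D2F1N minus C57BL/6J, enriched minus standard, and differences of portion differences. The filled points are the portion differences of Slc17a6 (1.58 and 1.38) and of Slc17a7 (-1.22 and -1.32), and all other points are open.

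The strains were compared within each housing and portion. No transporter passed in any of the 4 comparisons, in which 0.37% (standard anterior), 0.373% (standard posterior), 0.0639% (enriched anterior) and 0.394% (enriched posterior) of all genes passed. In standard mice the log2 difference of Slc17a6, B6D2F1N minus C57BL/6J, was 0.33 in the anterior (95% interval -0.18 to 0.83) and -0.55 in the posterior portion (-1.40 to 0.30), and that of Slc17a7 was -0.47 (-1.15 to 0.21) and -0.13 (-0.60 to 0.33). Without standard mouse 1 of B6D2F1N these were 0.31 and -0.85 for Slc17a6 and -0.76 and -0.26 for Slc17a7, and none passed.

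In enriched mice the intervals were wide in the anterior portion, where C57BL/6J had 2 libraries (-1.68 to 0.58 for Slc17a6 and -0.66 to 0.67 for Slc17a7). In the posterior portion Slc17a6 differed by 0.67 (0.13 to 1.22, edgeR adjusted p = 0.503) and Slc17a7 by -0.71 (-1.46 to 0.04, edgeR adjusted p = 0.558), with 4 C57BL/6J and 6 B6D2F1N libraries that overlapped for both genes. The difference of Slc17a8 there was 1.53 (0.08 to 2.98, edgeR adjusted p = 0.531). The ratio was 2.69-fold higher in the B6D2F1N than in the C57BL/6J geometric mean in that comparison (exact permutation test, p = 0.0238, adjusted 0.119), and the other 3 strain tests of the ratio had exact permutation p values of 0.0952 to 0.571.

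The housings were compared within each strain and portion. No transporter passed, with 0%, 0.0163%, 0% and 0% of all genes passing in edgeR for C57BL/6J anterior, C57BL/6J posterior, B6D2F1N anterior and B6D2F1N posterior. In the comparisons with no call, 1418 (C57BL/6J anterior), 1553 (B6D2F1N anterior) and 1716 (B6D2F1N posterior) genes had an unadjusted p under 0.05, and DESeq2 called 100, 8 and 13. In C57BL/6J, Slc17a6 differed by 1.35 on the log2 scale, enriched minus standard, in the anterior portion (95% interval 0.58 to 2.11, edgeR adjusted p = 0.562) and by -1.05 in the posterior portion (-1.73 to -0.37, edgeR adjusted p = 0.328). The 2 enriched anterior libraries did not overlap the 4 standard ones for Slc17a6 (88.9 and 191 against 34.6 to 84.3 CPM) nor for Slc17a7 (508 and 529 against 550 to 843 CPM), and 15.4% of all genes tested did not overlap between these groups. Without enriched mouse 1 the anterior difference of Slc17a6 was 0.67, and leaving out any 1 of the other mice gave 1.18 to 1.82, with none passing. None of the 5 thalamic neuron markers passed in that comparison, but all 5 had a difference above 0 (median 1.54, against -0.0074 over all genes), and their summed level was 372 and 93.4 CPM in enriched mice 1 and 3 and 76.5 to 111 CPM in the standard libraries. Their part in the difference was not tested. With no minimum count the anterior difference of Slc17a6 passed (1.35, edgeR adjusted p = 6.71e-05), in a fit that called 274 genes instead of 0.

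The corresponding differences of Slc17a7 were -0.44 (-0.93 to 0.06) in the anterior and 0.61 (-0.08 to 1.29) in the posterior portion of C57BL/6J. The ratio was 3.33-fold higher in the geometric mean of the enriched anterior libraries and 0.345-fold as high in the posterior ones, with exact permutation p values of 0.0667 (the smallest that 4 against 2 libraries allow) and 0.0857 (both 0.159 adjusted). In the same comparison the myelin gene Mbp was higher in the enriched posterior libraries (log2 difference 1.97, edgeR adjusted p = 0.0366), and the summed oligodendrocyte markers ranged from 18110 to 28342 CPM there against 8148 to 12766 CPM in the standard ones. Their part in the values of the transporters was not tested. In B6D2F1N, the differences of Slc17a6 and Slc17a7 between the housings lay between 0.02 and 0.46, each with an interval that included 0. Slc17a8 differed by 1.84 in the posterior portion (0.42 to 3.26, edgeR adjusted p = 0.752), from 0.927 ± 0.689 CPM (SD, n = 5) to 3.38 ± 1.24 CPM (SD, n = 6).

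The order of the groups by median level was the following. For Slc17a6 the highest medians were those of the C57BL/6J standard (260 CPM), B6D2F1N enriched (225 CPM) and B6D2F1N standard (200 CPM) posterior libraries, which overlapped one another. They were followed by the C57BL/6J enriched libraries of the posterior (141 CPM) and the anterior portion (140 CPM) and by the B6D2F1N enriched (76.0 CPM), B6D2F1N standard (71.6 CPM) and C57BL/6J standard (50.0 CPM) anterior libraries. For Slc17a7 the 4 anterior groups came first, led by C57BL/6J standard (693 CPM) before C57BL/6J enriched (519 CPM), B6D2F1N standard (480 CPM) and B6D2F1N enriched (465 CPM). The C57BL/6J enriched posterior group followed (309 CPM), and C57BL/6J standard (210 CPM), B6D2F1N enriched (196 CPM) and B6D2F1N standard (187 CPM) came last. Neighbours in both orders had ranges that overlapped, except for Slc17a7 in C57BL/6J standard and C57BL/6J enriched anterior libraries. For Slc17a8 the medians ran from 4.95 CPM (C57BL/6J standard anterior) over 4.62, 3.79 and 3.47 CPM (C57BL/6J enriched anterior, B6D2F1N standard anterior and B6D2F1N enriched posterior) to 2.41 CPM (B6D2F1N enriched anterior), 1.27, 0.897 and 0.209 CPM (C57BL/6J enriched, B6D2F1N standard and C57BL/6J standard posterior).

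The machinery that feeds and powers the transporters was examined as lists. All 15 listed subunits and accessory proteins of the vacuolar proton pump had a log2 difference between the portions below 0 in both strains. Of these, 5 passed in C57BL/6J and 11 in B6D2F1N, all of them lower, where 3.64% and 4% of all genes passed. The median log2 difference of the list was -0.45 and -0.56, beside 0.01 and 0.15 over all genes. The membrane subunit Atp6v0b (-0.78 and -0.77, edgeR adjusted p = 0.00230 and 0.00915) and the cytosolic subunits Atp6v1h (-0.64 and -0.53, edgeR adjusted p = 0.0119 and 0.0161) and Atp6v1e1 (-0.63 and -0.52, edgeR adjusted p = 0.0236 and 0.0124) were lower in both strains, as was the accessory protein Atp6ap2 (-0.54 and -0.64). The summed level ranged from 7604 to 16689 CPM in anterior and from 5448 to 10299 CPM in posterior libraries. Atp6v0c was also lower in B6D2F1N than in C57BL/6J in the standard anterior libraries (-1.10, SE 0.22, edgeR adjusted p = 0.0408).

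The median of 12 glutamate synthesis and recycling genes was -0.21 in both strains. In each strain 2 of them were lower in the posterior portion, beside 3.64% (C57BL/6J) and 4% (B6D2F1N) of all genes passing. Among them was Gls2, which makes glutamate from glutamine (-1.73 and -1.05, edgeR adjusted p = 0.00229 and 0.0420). Of the plasma membrane glutamate transporters, which clear released glutamate, 1 of 5 tested was higher in C57BL/6J (the glial carrier Slc1a3, 0.61, edgeR adjusted p = 0.0315) and 1 of 6 lower in B6D2F1N (the glial carrier Slc1a2, -0.66, edgeR adjusted p = 0.0118), with list medians of 0.01 and -0.20. These 2 genes are named because so few passed, after their values were seen. None of the 7 other vesicular transporters tested passed in either strain (medians -0.40 and -0.28).

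**Figure D5:**
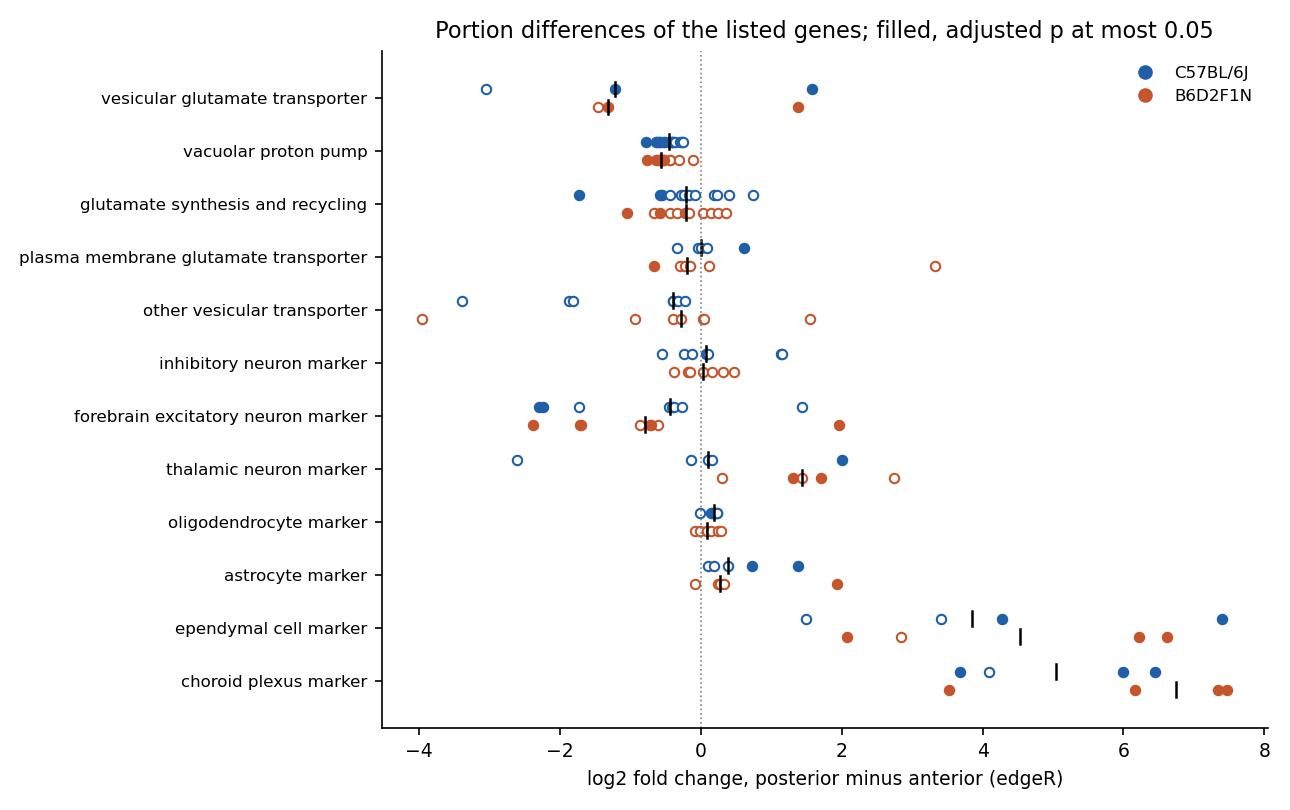
Log2 differences between the portions (posterior minus anterior, edgeR) of the genes of 12 lists, in C57BL/6J and B6D2F1N, with filled points for an adjusted p of at most 0.05 and a black tick at the list median. Proton pump genes lie to the left of 0 in both strains, with 5 and 11 of 15 filled, and choroid plexus genes lie to the right, with 3 and 4 of 4 filled.

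Genes whose levels followed each transporter over the 35 libraries were ranked by Pearson correlation of log2 CPM among 11710 genes with a mean of at least 5 CPM, as a description. For Slc17a7 the highest were Lingo1 (r = 0.95), Rtn4r (0.93), Scamp5 (0.92), Dkk3 (0.90) and Syngr1 (0.90). Within the 16 anterior and the 19 posterior libraries these 5 had r of 0.81 to 0.95 and 0.62 to 0.83. For Slc17a6 they were Amigo2 (0.81), Tspan33 (0.77), Kera (0.77), Sparc (0.76) and Fibin (0.75), with r of 0.09 to 0.68 and 0.10 to 0.68 within the portions. For Slc17a8 they were Itga9 (0.72), Kremen1 (0.71), Kcna6 (0.69), Ache (0.69) and Tmem8b (0.68), with 0.29 to 0.52 and 0.51 to 0.68. The libraries share portion and mouse, so over all 35 these values include the portion difference.

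Among the transporters themselves, 6 relations of log2 levels (0.1 CPM added) were computed within portions. Slc17a6 and Slc17a7 had a Pearson r of -0.07 over the 16 anterior libraries (permutation p = 0.791, Spearman rho -0.03, permutation p = 0.918, r without the 2 farthest libraries -0.04) and of 0.11 over the 19 posterior ones (permutation p = 0.642, rho 0.28, permutation p = 0.248, r without the 2 farthest 0.25). The largest was that of Slc17a6 and Slc17a8 in the anterior portion (r = 0.49, permutation p = 0.0528, rho 0.37, permutation p = 0.157), where r was 0.15 without the 2 farthest libraries, so that it rests on them. All 6 had Benjamini-Hochberg adjusted p values of at least 0.317. No inverse relation of Slc17a6 and Slc17a7 across the libraries of a portion was detected.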

How the data were processed

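The deposited files hold, for each of 35 libraries, whole-number counts of reads per Ensembl gene, which the authors made with HTSeq and left without normalization. The submitters' processing notes also name FastQC 0.11.7, Trimmomatic 0.38, HISAT2 2.1.0, SAMtools 1.8, HTSeq 0.11.2 and the mouse build GRCm38. Reads assigned to no gene made up 13.7% to 26.4% of each library and were left out. Gene symbols and coordinates came from GENCODE M21 (GRCm38), which was also the source of the printed coding sequences. With between 16938534 and 27352623 gene counts per library, low levels are the least precise, and limits for a count of 0 cover counting error only.

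Counts were analysed with edgeR 4.0.16 in R 4.3.3 (TMM normalization, quasi-likelihood test, genes with a total count of at least 10, Benjamini-Hochberg adjustment over all genes tested, threshold 0.05). The portions were compared within strain with mouse as a block, since the labels give both portions of 16 mice. Correlations of the deviations of both portions of a mouse ranged from -0.158 to 0.245 (median 0.103). Strains were compared within housing and portion, and housings within strain and portion. The ratio, with 0.5 added to each count, was compared with exact two-sided permutation tests. The pipeline was tested on simulated data.

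DESeq2 1.42.0, its size factors, other filters on low counts, library number as a covariate, leaving out each mouse and a fit without the block were the alternatives. The split of portion differences by housing was added after seeing the data. The members and lists were chosen with earlier results of these data known. Named were the 3 transporters, list genes past the threshold in both strains between the portions (the 4 with the smallest p in C57BL/6J where there were more) or in a strain or housing comparison, and the 5 genes most correlated with each transporter. Otx2 and Gbx2 are named as list genes at 0 in some libraries, and some genes that the rule names are not reported here.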

Additional observations from a re-analysis of the deposited data

Results flagged for a closer look

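Dixon's test was run on 32 sets of values, either groups of 4 to 6 libraries or the paired differences of 10 B6D2F1N mice. In 3 of the sets, all of them groups of libraries, 1 library stood apart, where chance gives about 1 set in 20. Slc17a6 was at 213 CPM in the anterior library of B6D2F1N enriched mouse 2, against 43.6 to 83.2 CPM in the other 4. Slc17a8 was at 7.12 CPM in the anterior library of B6D2F1N standard mouse 2, against 3.13 to 4.03 CPM in the other 4. It was at 2.55 CPM in the posterior library of C57BL/6J standard mouse 2, against 0 to 0.418 CPM in the other 3.

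The portion difference of Slc17a6 in C57BL/6J differed between the housings by -2.46 on the log2 scale (enriched minus standard), since the 4 standard mice had a higher level in the posterior portion and the 2 enriched mice a slightly lower one (log2 differences of -0.05 and -0.07). The exact permutation test of the housing labels gave p = 0.0667, the smallest that 4 against 2 mice allow, so this difference could not pass the threshold.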

How the results depend on the processing

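Of 638 values of 46 results under alternative settings, 583 kept the direction and the side of the threshold, and 40 changed sign, 1 of them for a result past the threshold. In C57BL/6J the portion difference of Slc17a6 was not called with DESeq2 (1.59) or filterByExpr (1.59), and that of Slc17a8 was called with DESeq2 (-3.18) and with no minimum count (-3.06). In the splits by housing, added after seeing the data, C57BL/6J enriched mice gave -0.061 for Slc17a6 and -0.20 for Slc17a7, C57BL/6J standard mice -4.33 for Slc17a8, and B6D2F1N standard mice 1.35 and -1.25 for Slc17a6 and Slc17a7. With no minimum count the housing difference of Slc17a6 in C57BL/6J anterior libraries was called (1.35). Among uncalled differences, sign changes occurred with library number as a covariate for Slc17a8 between strains in standard posterior (-1.09), Slc17a8 between housings in C57BL/6J anterior (0.59) and Slc17a7 between housings in B6D2F1N anterior libraries (-0.040), and with filterByExpr for Slc17a7 between strains in enriched anterior libraries (-0.0042). The cause was not tested.

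The ratio was also tested without mouse as a replicate block, the pairing of the portions being dropped. In C57BL/6J that test used all 6 anterior and all 8 posterior libraries, including posterior ones of mice without an anterior library. The ratio then differed by 2.77 (permutation test, adjusted p = 0.00999) and was called. In edgeR fits without the block, over the mice with both portions, Slc17a6 and Slc17a7 differed by 1.52 and -1.13 in C57BL/6J. They differed by 1.36 and -1.36 in B6D2F1N, and no other call changed.

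Leaving out 1 mouse at a time gave 1.17 to 1.94 (Slc17a6), -1.44 to -1.06 (Slc17a7) and -3.57 to -2.43 (Slc17a8) between the portions in C57BL/6J, and 1.25 to 1.57, -1.48 to -1.12 and -1.71 to -1.14 in B6D2F1N. Ranges that crossed 0, all of differences that were not called, were -0.47 to 0.17 and -0.079 to 2.73 for Slc17a8 between strains in standard anterior and posterior libraries, and -1.09 to 0.12, -0.19 to 0.091 and -0.18 to 1.14 for Slc17a6, Slc17a7 and Slc17a8 in enriched anterior ones. Between housings they were -0.87 to 0.45 for Slc17a8 in C57BL/6J anterior, -0.080 to 0.62, -0.20 to 0.33 and -0.043 to 0.71 for Slc17a6, Slc17a7 and Slc17a8 in B6D2F1N anterior, -0.055 to 0.45 and -0.13 to 0.17 for Slc17a6 and Slc17a7 in B6D2F1N posterior, and -0.29 to 0.46 for the ratio in B6D2F1N anterior libraries. The portion differences differed between strains by -0.38 to 0.27 for Slc17a6 and -0.43 to 0.057 for Slc17a7.

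Counts over all genes moved more. DESeq2 called 1535 and 1994 genes between the portions (edgeR 937 and 1110), 254, 392, 137 and 342 between strains (edgeR 90, 94, 15 and 101) and 100, 319, 8 and 13 between housings (edgeR 0, 4, 0 and 0), and 1 for the difference of portion differences between housings (edgeR 0). With no minimum count edgeR called 274 and 112 genes between housings in C57BL/6J (0 and 4), 57 between strains in enriched anterior libraries (15) and 8 for the difference of portion differences between strains (0). Library number as a covariate gave 151 between strains in standard posterior libraries (94). Depth limits Slc17a8 most, with 3 counts or fewer in 4 of 19 posterior libraries.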
